A study of Mus musculus with 13 samples.

Results

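Genes of the DNA damage checkpoint, of homologous recombination, of the Fanconi anaemia pathway and of other DNA repair routes were followed in CGR8 mouse embryonic stem (ES) cells treated with PhenDC3, a bisquinolinium compound that binds and stabilizes G-quadruplexes (G4). The members were 45 genes chosen by name, out of 24079 genes in the count table, and all 45 were found and had enough reads to be tested. Messenger RNA was sequenced from 3 control libraries (cells kept for 48 h in 0.5% DMSO) and 3 PhenDC3 libraries (10 µM for 48 h, in the same solvent). Replication origins had been mapped in the same line by sequencing short nascent strands (SNS-seq), with 3 control lists and 2 PhenDC3 lists of peaks. The cells were asynchronous, all of the CGR8 line and with no genetic change named, and were kept without feeders on gelatin with leukaemia inhibitory factor and serum. The question behind the comparison was whether a ligand that stabilizes G4 altered the origins and the expression of genes in these cells.

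Damaged DNA or a stalled replication fork is sensed by the kinases ATR and ATM with their partners, which pass the signal to CHK1 and CHK2 and so hold back the cell cycle. Breaks are resected and repaired from the sister chromatid by homologous recombination, in which the BRCA proteins act, or are joined end to end by Ku and DNA-PK. The Fanconi proteins unhook crosslinks between the strands, through a core complex that ubiquitinates FANCD2 and FANCI. ES cells, which cycle fast with a short G1 phase, express many, though not all, of the genes of these routes at high levels.

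The libraries held between 22232014 and 29486502 counts. A single gene, the ribosomal RNA precursor Rn45s, took between 2.55% and 5.70% of the counts of the control libraries, against at most 1.43% for the top gene of a PhenDC3 library. Levels are given as normalized CPM, counts scaled to a common library size by relative log expression. Markers of ES cells were summed between 6479 and 6903 CPM in control and between 8455 and 9426 CPM in PhenDC3, with 4 of 8 higher and 1 (Pou5f1) lower. Of 6 fibroblast markers, Lum was at 0 in all 6 libraries, Postn and Col3a1 were at or below 0.173 CPM, and Thy1 fell from 5.03 ± 0.815 to 2.02 ± 0.330 CPM (SD, n = 3; log2 fold change -1.31, edgeR adjusted p = 0.00228). The list summed to 5.88 to 6.84 CPM in control and 3.22 to 5.92 CPM with PhenDC3, and of its 3 genes tested Thy1 was the only call. Col1a1 and Col1a2 had point estimates in the other direction, 0.68 and 1.64 in log2, with overlapping groups (edgeR adjusted p = 0.193 and 0.105). Their means were 0.863 and 0.264 CPM in control and 1.37 and 0.820 CPM with PhenDC3. Primitive endoderm markers summed to 47.4 to 111.2 CPM in control and 96.4 to 158.1 CPM with PhenDC3 (4 of 6 higher). Trophoblast markers summed to 82.5 to 109.8 CPM in control and 173.5 to 228.7 CPM with PhenDC3, with Tfap2c, Krt8 and Krt18 higher (3 of 6). Eomes had a log2 fold change of -0.47 (edgeR adjusted p = 0.0908), and Cdx2 and Elf5 were at or below 0.46 CPM. Mesoderm and neural markers summed to 24.4 to 26.9 CPM in control and 42.1 to 44.7 CPM with PhenDC3 (2 of 6 higher, 1 lower). Nes rose from 14.0 to 33.1 CPM and Foxa2 from 1.39 to 3.79 CPM, and Pax6 fell from 7.13 to 1.92 CPM. T and Mixl1 were at or below 0.590 CPM. The part of other cell types in the values of the members was not tested. The sources used here do not say that the RNA libraries came from separate cultures, so the p-values measure the spread between these libraries, which may be technical.

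The promoters of the members were searched for sites of E2F, the factors that drive genes of the G1 to S transition, for predicted G4 and for common promoter boxes. RefSeq promoters (build GRCm38.p6, 250 bases before to 50 after a start) were at hand for 36 of the 45 members, not for Wee1, Rad9a, Rad50, Nbn, Xrcc2, Rbbp8, Exo1, Fancd2 and Prkdc. An E2F site, TTTGGCGC or TTTCCCGC on either strand, was found in 8 of 36 members (22.2%), against 3.48% of 11044 tested genes and 1.56% of all 32851 promoters. They were Bard1, Brca2, Cdc25a, Chek2, Mdc1, Msh6, Rad51c and Xrcc6. A G4 pattern, 4 runs of at least 3 G with loops of 1 to 7 bases on either strand, was found in 5 members (13.9%: Atr, Fancm, Msh6, Parp1 and Rad51c), against 31.9% of tested genes and 18.6% of all promoters. With loops of up to 12 bases it was found in 11 members (30.6%), against 47.4% of tested genes. The median GC content was 59.7% in member promoters and 60.7% in those of tested genes.

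The Sp1 box GGGCGG was found in 23 members (63.9%), against 68.5% of tested genes and 35.7% of all promoters. The NF-Y box CCAAT was found in 20 (55.6%), against 43.0% and 37.4%. The CHR element TTTGAA was found in 4 (11.1%), against 14.1% and 17.9%. All these motifs were searched on both strands, and a GGGCGG box can lie within a G4 pattern. The shares are descriptions of these windows, and no difference between them was tested.

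The 250 bases before the start of 6 members are given 5′ to 3′ on the strand of the gene, from RefSeq (GRCm38.p6). Xrcc6, Brca2 and Cdc25a are shown for their E2F site, Fancm for its Sp1 and NF-Y boxes as the member with the largest rise, and Atr and Parp1 for their G4 pattern. Capitals mark the 4 kinds of box or site and the G4 pattern with loops of 1 to 7 bases, on either strand, where they lie wholly within the printed bases. Patterns with longer loops are not marked, and the G4 pattern counted for Fancm is not marked because it reaches past the printed bases.
Xrcc6 promoter, chr15:82016119-82016368, plus strand: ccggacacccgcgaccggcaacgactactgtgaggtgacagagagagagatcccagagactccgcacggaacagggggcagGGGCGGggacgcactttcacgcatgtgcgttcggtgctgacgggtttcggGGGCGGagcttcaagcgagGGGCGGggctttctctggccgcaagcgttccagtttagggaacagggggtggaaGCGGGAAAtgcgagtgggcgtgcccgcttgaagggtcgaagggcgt
Brca2 promoter, chr5:150522371-150522620, plus strand: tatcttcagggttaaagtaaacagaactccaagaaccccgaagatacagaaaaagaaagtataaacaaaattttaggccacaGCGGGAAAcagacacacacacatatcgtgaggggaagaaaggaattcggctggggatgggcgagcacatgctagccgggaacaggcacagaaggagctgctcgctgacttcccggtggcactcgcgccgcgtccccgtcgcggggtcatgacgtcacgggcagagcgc
Cdc25a promoter, chr9:109875329-109875578, plus strand: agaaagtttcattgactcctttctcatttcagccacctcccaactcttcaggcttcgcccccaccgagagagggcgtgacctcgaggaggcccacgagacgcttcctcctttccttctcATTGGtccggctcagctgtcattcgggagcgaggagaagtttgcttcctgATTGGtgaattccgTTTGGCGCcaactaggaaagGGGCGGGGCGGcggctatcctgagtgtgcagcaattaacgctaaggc
Fancm promoter, chr12:65075353-65075602, plus strand: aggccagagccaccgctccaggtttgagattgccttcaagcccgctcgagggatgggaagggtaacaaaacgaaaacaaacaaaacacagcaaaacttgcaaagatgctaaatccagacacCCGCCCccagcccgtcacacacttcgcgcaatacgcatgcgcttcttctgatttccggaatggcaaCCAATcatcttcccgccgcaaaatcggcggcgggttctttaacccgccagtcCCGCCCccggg
Atr promoter, chr9:95857347-95857596, plus strand: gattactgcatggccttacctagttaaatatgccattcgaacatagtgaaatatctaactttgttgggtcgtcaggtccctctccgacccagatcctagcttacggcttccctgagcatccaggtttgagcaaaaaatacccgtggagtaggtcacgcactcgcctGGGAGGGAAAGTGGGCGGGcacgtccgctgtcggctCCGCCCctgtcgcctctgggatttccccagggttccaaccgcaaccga
Parp1 promoter, chr1:180568641-180568890, plus strand: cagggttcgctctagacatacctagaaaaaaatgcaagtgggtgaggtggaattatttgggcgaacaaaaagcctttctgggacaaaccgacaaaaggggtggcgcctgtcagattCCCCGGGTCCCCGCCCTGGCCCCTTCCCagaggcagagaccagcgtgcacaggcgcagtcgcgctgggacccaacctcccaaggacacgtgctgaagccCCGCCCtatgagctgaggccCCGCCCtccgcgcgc
The E2F site of Xrcc6 lies between its last Sp1 box and the start, and that of Cdc25a between an NF-Y box and 2 Sp1 boxes. The G4 pattern of Parp1 is printed as its C-rich strand, and that of Atr contains a Sp1 box.

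With scaling by relative log expression, 9 of 45 members passed the test for a change in mRNA level with PhenDC3, and most of those fell. With edgeR's quasi-likelihood test and an adjusted p of at most 0.05, 7 members fell (Fancl, Xrcc6, Rad51c, Brca2, Nbn, Rad1 and Prkdc), 2 rose (Fancm and Rbbp8) and 36 did not pass. The 9 calls stand against a background of 36.8% among the 13972 genes tested. By direction, 15.6% of the members were lower, against 18.7% of tested genes, and 4.44% were higher, against 18.0%. The log2 fold changes of the members ran from -0.72 to 0.72, so no member moved by more than 1 in log2, whereas 2115 of all tested genes did. Their median was -0.16, against 0.01 for tested genes, and 32 of 45 point estimates were below 0, against 49.3% of tested genes. Standard errors lay between 0.100 and 0.232 in log2. The 3 PhenDC3 libraries lay wholly below the 3 controls for 13 members and wholly above for 3, where the background was 25.6% and 25.0%.

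The count depended on the scaling and on single libraries. Scaling by total counts alone moves the median of all genes to 0.16 in log2, and gave 4 members higher (Fancm, Rbbp8, Fanci and Slx4) and 3 lower (Fancl, Xrcc6 and Rad51c). Over all tested genes it gave 3583 higher and 1688 lower, against 2518 and 2617 with relative log expression. Without Control replicate 3, 4 were higher. The lower calls came to 2 without PhenDC3 replicate 1, and to 4 without PhenDC3 replicate 2 and without PhenDC3 replicate 3. Of all tested genes, 36.8% passed with all libraries and 38.0% without Control replicate 3. The share was 23.5%, 28.7% and 26.8% without PhenDC3 replicate 1, 2 and 3. Control replicate 3 gave the highest control value for 30 of 45 members, against 37.7% of tested genes, and without it the median of the members was -0.06. Those 30 members had a median of 4605 bases of exon, and the other members 2956. In the PhenDC3 group, replicate 3 was the highest for 29 members, against 35.5% of tested genes.

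**Figure D1:**
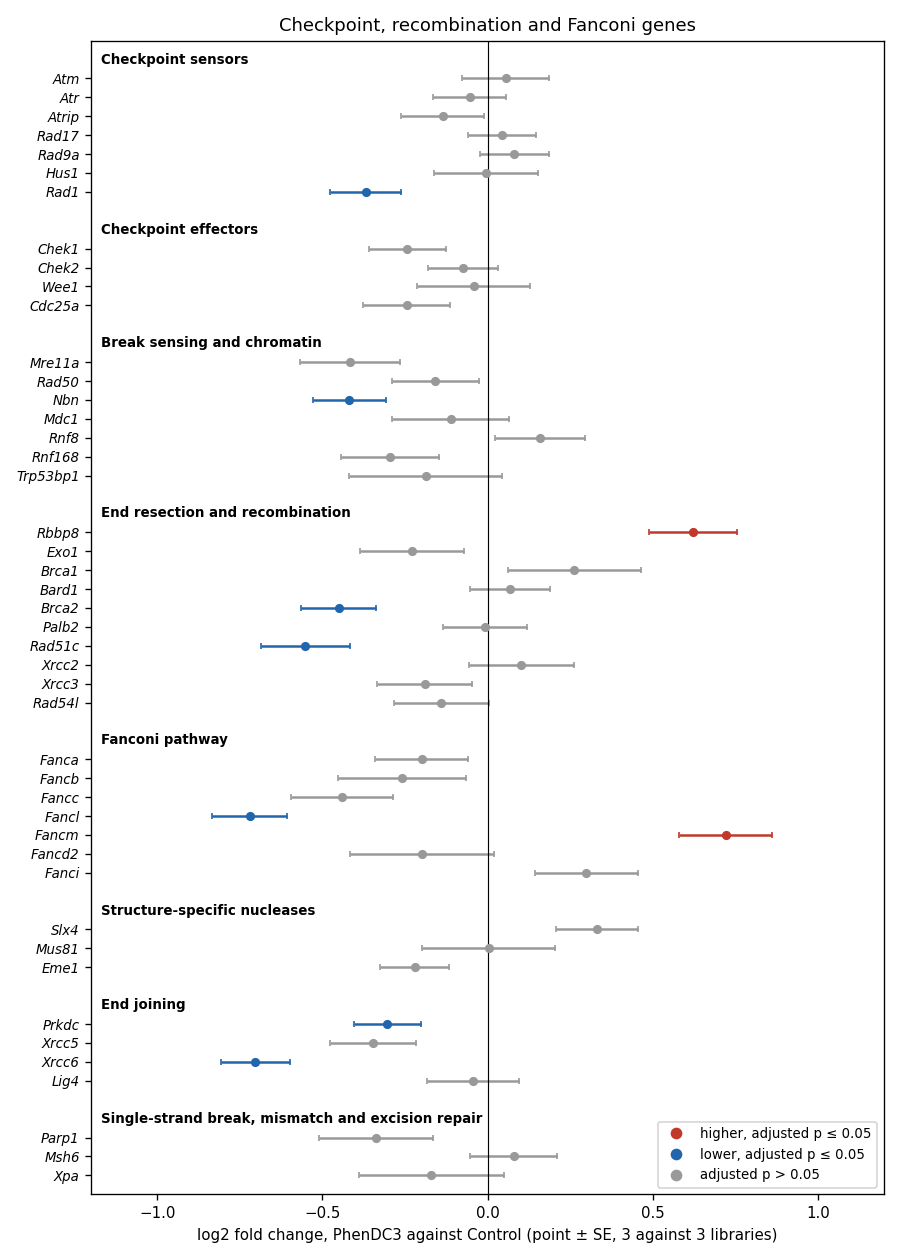
Log2 fold change of each of the 45 members with PhenDC3 against control (x axis, point ± SE, 3 against 3 libraries), ordered by role. Points in blue (7) and red (2) passed an adjusted p of 0.05, and no point lies beyond -0.72 or 0.72.

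Among the checkpoint sensors, the clamp subunit Rad1 fell and the other 6 did not pass the test. Atr, the kinase that responds to stalled forks, was at 61.1, 68.3 and 68.2 CPM in the control libraries and at 58.3, 63.7 and 68.3 CPM with PhenDC3. The groups overlapped, and the log2 fold change was -0.05 (SE 0.11, edgeR adjusted p = 0.729). Atrip, its obligate partner, had a log2 fold change of -0.14, and Atm, the kinase that responds to breaks, of 0.05. Atrip shares 98.9% of its exon bases with a read-through transcript, so its reads could have been split. Rad1 forms the 9-1-1 clamp with Rad9a and Hus1, which Rad17 loads on DNA. Rad1 was at 51.4, 54.2 and 59.4 CPM in control and at 40.4, 43.6 and 43.8 CPM with PhenDC3. All treated libraries lay below all controls, and the log2 fold change was -0.37 (SE 0.11, edgeR adjusted p = 0.0253). Its call was lost without PhenDC3 replicate 1 (adjusted p = 0.122), replicate 2 (0.0626) or replicate 3 (0.0623), and with total counts (0.145). With each library left out in turn, its log2 fold change stayed between -0.42 and -0.32. The other clamp subunits and the loader did not pass, with log2 fold changes of 0.08 for Rad9a, -0.01 for Hus1 and 0.04 for Rad17.

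None of the 4 checkpoint effectors passed. Chek1 encodes CHK1, the kinase that ATR activates. It was at 95.5, 91.3 and 88.1 CPM in control and at 78.7, 68.1 and 85.4 CPM with PhenDC3. The groups did not overlap, with a log2 fold change of -0.24 (SE 0.12, edgeR adjusted p = 0.130). Cdc25a, the phosphatase that CHK1 targets for degradation, also did not overlap between groups, with means of 145.5 ± 21.4 and 122.7 ± 9.07 CPM (SD, n = 3), and a log2 fold change of -0.25 (edgeR adjusted p = 0.171). The values for Chek2, the kinase downstream of ATM, and for Wee1, the kinase that restrains CDK1, were -0.07 and -0.04 in log2, with overlapping groups.

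Of the genes that sense breaks and mark the chromatin around them, Nbn fell. Nbn, Mre11a and Rad50 encode the MRN complex, which binds ends and activates ATM. Nbn was at 28.3, 27.9 and 27.7 CPM in control and at 21.3, 21.9 and 19.6 CPM with PhenDC3. The controls were within 1 CPM of each other and all treated libraries were lower, with a log2 fold change of -0.42 (SE 0.11, edgeR adjusted p = 0.0168). Its call was lost without PhenDC3 replicate 1 (adjusted p = 0.0669) or replicate 3 (0.0698), and with total counts (0.105). Over the libraries left out, its log2 fold change stayed between -0.45 and -0.37. Mre11a had the same point estimate as Nbn, -0.42, with a larger error (SE 0.15, edgeR adjusted p = 0.0567). It passed without Control replicate 2 (adjusted p = 0.0219) and in DESeq2 (0.0467). Rad50 was at -0.16 in log2, with overlapping groups. Thus 1 of the 3 MRN genes passed, and a difference between the 3 was not tested. Of the genes acting after MRN, none passed. The scaffold Mdc1 had a log2 fold change of -0.11, the chromatin ubiquitin ligases Rnf8 and Rnf168 of 0.16 and -0.30, and Trp53bp1, which favours end joining over resection, of -0.19. Rnf168 passed without Control replicate 2 (edgeR adjusted p = 0.0494). Trp53bp1 was at 119.5 CPM in Control replicate 3 against 70.3 and 58.7 CPM in the other controls, and without that library its point estimate was 0.17. Rnf8 shares 78.4% of its exon bases with a read-through transcript on its own strand, and Trp53bp1 22.1% with Tubgcp4 on the other strand.

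The recombination genes moved in both directions. Rbbp8 encodes CtIP, which starts resection together with MRN. It was at 25.6, 26.9 and 22.0 CPM in control and at 40.4, 41.0 and 33.3 CPM with PhenDC3. All treated libraries were above all controls, and Rbbp8 rose 1.54-fold (log2 fold change 0.62, SE 0.13, edgeR adjusted p = 0.00687). Exo1, the exonuclease that extends resection, had a log2 fold change of -0.23 and overlapping groups (edgeR adjusted p = 0.282).

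Brca2, a central mediator of homologous recombination, fell. It was at 80.0, 89.5 and 94.3 CPM in control and at 61.2, 61.7 and 70.1 CPM with PhenDC3. The groups were apart, with a log2 fold change of -0.45 (SE 0.11, edgeR adjusted p = 0.0140). The call was lost without PhenDC3 replicate 1 (adjusted p = 0.075) or replicate 2 (0.0513), and with total counts (0.0626). Over the libraries left out, the log2 fold change of Brca2 stayed between -0.52 and -0.40. Brca1, the ubiquitin ligase that promotes resection, was at 120.9, 95.3 and 159.2 CPM in control and at 147.0, 123.3 and 180.1 CPM with PhenDC3. Its groups overlapped widely, and its log2 fold change of 0.26 (SE 0.20) did not pass (edgeR adjusted p = 0.331). Bard1, the partner of BRCA1, and Palb2, which bridges BRCA1 and BRCA2, had log2 fold changes of 0.07 and -0.01.

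Rad51c, which acts in homologous recombination, fell. It was at 19.98, 17.7 and 21.7 CPM in control and at 13.5, 12.4 and 14.5 CPM with PhenDC3. The groups were apart, with a log2 fold change of -0.55 (SE 0.13, edgeR adjusted p = 0.0122), and the call was lost only without PhenDC3 replicate 1 (adjusted p = 0.0534) among the alternatives run. Over the libraries left out, the log2 fold change of Rad51c stayed between -0.63 and -0.49. Xrcc3, whose protein pairs with that of Rad51c, and Xrcc2, which also acts in recombination, had log2 fold changes of -0.19 and 0.10 with overlapping groups. Rad54l, a DNA-dependent motor of recombination, was at -0.14.

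**Figure D2:**
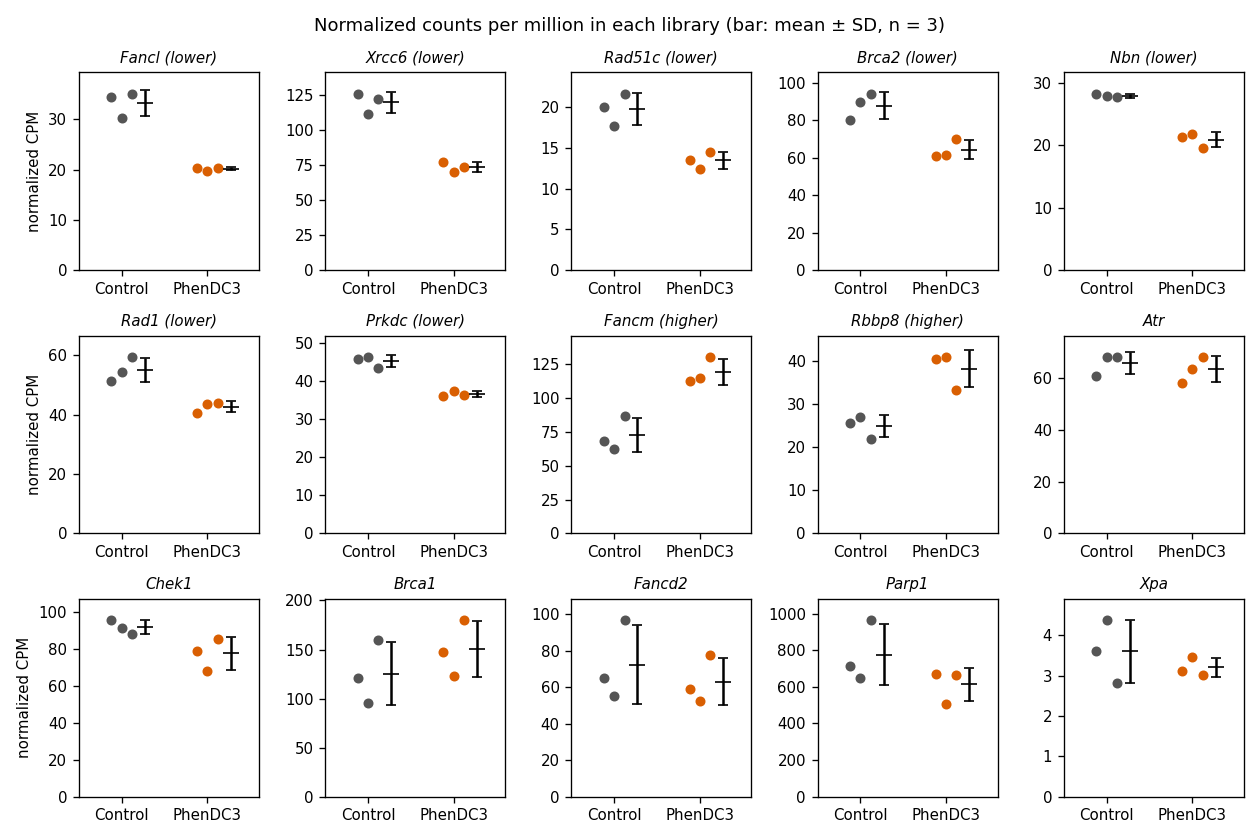
Normalized CPM (y axis, from 0) of 15 members in each of the 3 control (grey) and 3 PhenDC3 (orange) libraries, with the mean ± SD beside each group. The panels marked lower or higher are the 9 members that passed, and their groups do not overlap.

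The largest rise and the largest fall among the members by point estimate were both in the Fanconi pathway. Fancl encodes the ubiquitin ligase subunit of the core complex. It was at 34.4, 30.3 and 35.2 CPM in control and at 20.4, 19.8 and 20.4 CPM with PhenDC3. The treated libraries were within 1 CPM of each other, and Fancl fell by 0.72 in log2 (SE 0.11, edgeR adjusted p = 0.00162). Fancl shares 21.7% of its exon bases with Vrk2 on the opposite strand, and the strand setting of the counting is not given in the sources used here. Vrk2 was at 5.84 to 6.43 CPM in control and 8.12 to 8.91 CPM with PhenDC3, a change in the other direction (log2 fold change 0.47, edgeR adjusted p = 0.0358).

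Fancm encodes the translocase that recognizes stalled forks and anchors the core complex. It was at 68.6, 62.2 and 86.5 CPM in control and at 112.7, 115.2 and 130.5 CPM with PhenDC3. All treated libraries were above all controls, and Fancm rose 1.65-fold (log2 fold change 0.72, SE 0.14, edgeR adjusted p = 0.00443). Fancl, Fancm, Rbbp8 and Xrcc6 were the 4 members that kept their call under all 12 alternatives run.

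Fanca, Fancb and Fancc encode further core subunits, and none of these members passed. Fanca had a log2 fold change of -0.20 and Fancb of -0.26. Fancc was at 13.6, 13.7 and 17.3 CPM in control and at 11.8, 11.4 and 9.66 CPM with PhenDC3. Its groups were apart, and its log2 fold change of -0.44 (SE 0.16) missed the threshold (edgeR adjusted p = 0.0519), which it passed with TMM scaling (0.0471) and in DESeq2 (0.045). Fancd2 and Fanci encode the pair that the core complex ubiquitinates. Fancd2 was at 64.8, 55.3 and 96.8 CPM in control and at 58.8, 52.6 and 77.6 CPM with PhenDC3. The groups overlapped (log2 fold change -0.20, SE 0.22, edgeR adjusted p = 0.507), and without Control replicate 3 the point estimate was 0.06. The value for Fanci was 0.30 (SE 0.16, edgeR adjusted p = 0.160), and it passed without Control replicate 3 (0.0221) and with total counts (0.0291).

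None of the 3 nuclease genes passed. Slx4, the scaffold that the Fanconi pathway recruits to cut crosslinks, was at 31.8, 30.3 and 37.2 CPM in control and at 42.2, 38.1 and 44.4 CPM with PhenDC3. Its groups were apart, with a log2 fold change of 0.33 (SE 0.12, edgeR adjusted p = 0.0634), and it passed without Control replicate 3 (0.0248) and with total counts (0.0107). Mus81 and Eme1 encode the 2 subunits of a nuclease that cuts branched DNA. Their log2 fold changes were 0.00 and -0.22, with groups apart only for Eme1 (edgeR adjusted p = 0.129).

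The end joining genes had the lowest median of the 8 roles, -0.32 in log2, and 2 of 4 fell. Xrcc6 and Xrcc5 encode the Ku70 and Ku80 subunits of the Ku ring that binds broken ends. Xrcc6 was at 126.1, 111.3 and 121.9 CPM in control and at 77.0, 69.8 and 73.8 CPM with PhenDC3. The groups were far apart, and Xrcc6 fell by 0.70 in log2 (SE 0.10, edgeR adjusted p = 0.00123). Xrcc5 was at 174.4, 146.8 and 197.5 CPM in control and at 132.9, 129.0 and 146.0 CPM with PhenDC3. Its treated libraries also lay below all controls, but its log2 fold change of -0.35 (SE 0.13) missed the threshold (edgeR adjusted p = 0.0657), which it passed without Control replicate 2 (0.0227). Prkdc encodes the DNA-PK catalytic subunit that Ku recruits. It was at 45.8, 46.3 and 43.4 CPM in control and at 36.1, 37.5 and 36.3 CPM with PhenDC3. The groups were apart, with a log2 fold change of -0.30 (SE 0.10, edgeR adjusted p = 0.0415), which is close to the threshold. Its call was lost without Control replicate 1 (adjusted p = 0.0858) or 2 (0.0891), without PhenDC3 replicate 1 (0.152), 2 (0.0954) or 3 (0.114), without the filter on low counts (0.066) and with total counts (0.297). Over the libraries left out, its log2 fold change stayed between -0.34 and -0.29. Lig4, the ligase of the pathway, was at -0.04 in log2.

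The 3 genes of single-strand break, mismatch and excision repair did not pass. Parp1, which senses single-strand breaks, was at 711.8, 649.1 and 965.2 CPM in control and at 670.2, 507.3 and 662.2 CPM with PhenDC3. The groups overlapped, with a log2 fold change of -0.34 (SE 0.17, edgeR adjusted p = 0.156). Msh6, which recognizes mismatches, was at 0.08. Xpa, a scaffold of excision repair, had the fewest reads of all members, between 65 and 100 per library. It was at 3.62, 4.38 and 2.81 CPM in control and at 3.12, 3.47 and 3.01 CPM with PhenDC3, which overlapped (log2 fold change -0.17, SE 0.22, edgeR adjusted p = 0.576). Per kilobase of exon, the level in control was highest for Parp1 (212.1 CPM per kb) and Msh6 (167.2 CPM per kb), followed by Xrcc5 (60.7) and Xrcc6 (56.7). It was lowest for Fancc (3.23 CPM per kb), Prkdc (3.56) and Xpa (3.77).

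Fewer members of the same pathways outside the 45 rose than fell. Of 78 further genes listed for the checkpoint, recombination, Fanconi, end joining and excision repair, 76 were in the table and all 76 were tested. In this list 17 fell, 3 rose and 56 did not pass, with a median log2 fold change of -0.14, against 18.7% lower and 18.0% higher of all tested genes. The rises were all in the Fanconi and translesion group. Rev1, a translesion polymerase and scaffold, rose from 68.8 ± 4.43 to 131.0 ± 26.6 CPM (SD, n = 3; log2 fold change 0.93, edgeR adjusted p = 0.00181). Fancg, of the core complex, rose by 0.49 (edgeR adjusted p = 0.0206), and Rev3l, the catalytic subunit of polymerase zeta, by 0.34 (0.0425). The largest falls were Rfc5 (-0.74), a subunit of clamp loaders, Fance (-0.70), of the core complex, Dclre1c (-0.68), which encodes the Artemis nuclease of end joining, and Rmi2 (-0.65), a partner of the BLM helicase, with edgeR adjusted p between 0.00132 and 0.0138. Of the 16 checkpoint mediators and brakes, 7 fell and none rose. Of the 19 recombination genes, 1 fell and none rose, and a difference between these groups was not tested. These counts depended on the scaling and on single libraries. Total counts gave 8 higher and 7 lower, where all tested genes gave 3583 higher and 1688 lower. Without Control replicate 1 or PhenDC3 replicate 1, 1 was higher, and without Control replicate 3, 8 were. Without PhenDC3 replicate 1, 8 were lower, and without PhenDC3 replicate 2 or 3, 10 were. Of all tested genes, 28.8% passed without Control replicate 1 and 38.0% without Control replicate 3, against 36.8% with all libraries. The share was 23.5%, 28.7% and 26.8% without PhenDC3 replicate 1, 2 and 3.

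Markers of the cell cycle and of p53 moved in the same libraries. Of 13 S phase genes, 7 were lower and none higher, with a median log2 fold change of -0.37, and the list summed to between 4418 and 5407 CPM in control and between 3441 and 3885 CPM with PhenDC3. Of 11 genes of G2 and mitosis, 1 was lower and 1 higher, and the sums overlapped (2483 to 3172 CPM and 2652 to 3034 CPM). Of 10 targets of p53, 7 were higher and none lower, with a median of 1.10, and the sums were 1066 to 1111 CPM against 2251 to 2420 CPM. The part of these changes in the values of the members was not tested. In bulk libraries a shift in the share of cells in a phase and a shift of RNA per cell cannot be told apart. The paper reports an unaffected cell cycle profile in ES cells at this dose and time, and that profile was not examined here.

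**Figure D3:**
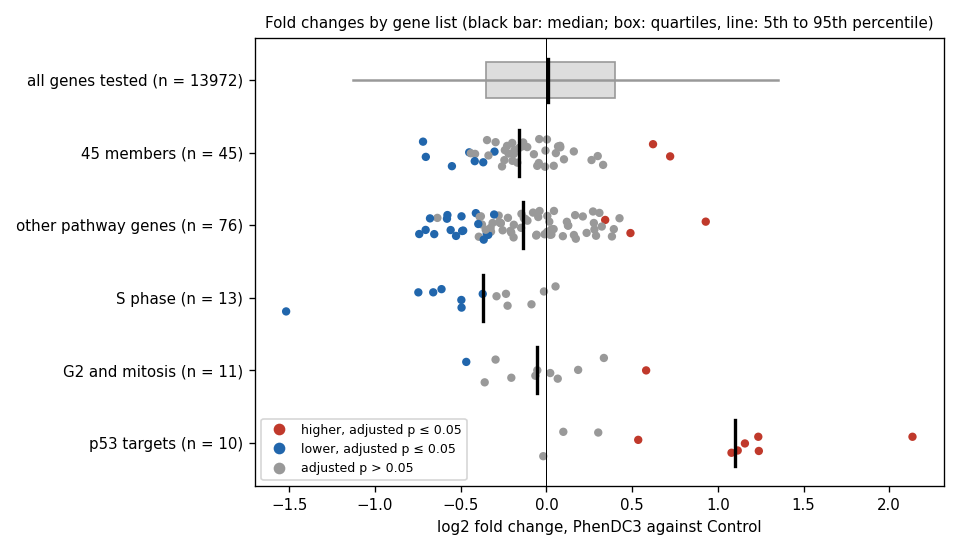
Log2 fold change with PhenDC3 against control (x axis) of each gene in 5 lists, with the quartiles and the 5th to 95th percentile of all tested genes in the top row and the median as a black bar. The members (median -0.16) and the other pathway genes (-0.14) lie between the S phase genes (-0.37) and all genes (0.01), and the p53 targets lie at 1.10.

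Several members stood head to head with another gene. A start on the opposite strand lay within 1 kb of the start of 17 of 45 members (37.8%), against 16.5% of 13949 tested genes with an annotated start. Among the 9 that passed, 4 had such a neighbour. Desi1, whose start is 149 bases from that of Xrcc6, also fell (log2 fold change -0.54, edgeR adjusted p = 0.00767). The neighbours of Rad1, Rad51c and Prkdc did not pass, with log2 fold changes of -0.10 for Brix1, 0.00 for Tex14 and -0.24 for Mcm4.

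SNS-seq peaks, which mark replication origins, were counted at the promoters of the members in each list. A peak within 2 kb of an annotated start was present for 19, 21 and 9 of the 45 members in the 3 control lists and for 18 and 12 in the 2 PhenDC3 lists. As shares of the members these were at most 46.7% in control, and 40.0% and 26.7% with PhenDC3. Tested genes were at 67.2%, 64.6% and 39.2% in control and at 64.3% and 46.0% with PhenDC3, above the members in all 5 lists, and this difference was not tested. The mean number of members with a peak was 16.3 ± 6.43 (SD, n = 3) in control and 15 ± 4.24 (SD, n = 2) in PhenDC3, which overlapped (exact permutation test, two-sided, p = 1.0, where 3 against 2 lists cannot go below 0.2). The difference of -1.33 members ranged from -5 without Control replicate 3 and -4.33 without PhenDC3 replicate 1, through 0 without Control replicate 1, to 1 without Control replicate 2 and 1.67 without PhenDC3 replicate 2. With equal numbers of peaks in each list, 14, 21 and 9 members had a peak in control and 11 and 9 with PhenDC3, a difference of -4.67 (exact permutation test, two-sided, p = 0.6). The peak lists came without read counts and their depth is unknown, and a promoter with no peak in a list may still hold an origin.

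A peak was present in all 5 lists for 6 members (13.3%, against 25.9% of tested genes): Rad17, Wee1, Trp53bp1, Xrcc3, Fancc and Xrcc6. In Xrcc6 a peak covered the start in every list, with a summit at -5, -9 and 4 bases from the start in control and at 54 and -3 bases in PhenDC3. The strongest fold enrichment over the RNase-treated library within the window of Xrcc6 was 5.22, 4.66 and 3.60 in control and 11.0 and 5.04 in PhenDC3. In Control replicate 1 that peak spanned chr15:82016123-82016764 and in PhenDC3 replicate 1 chr15:82016135-82016564, which both overlap the promoter printed above with its E2F site.

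A peak in at least 2 control lists and in no PhenDC3 list was found for 8 members (17.8%, against 8.27% of tested genes): Atr, Cdc25a, Rnf8, Rbbp8, Eme1, Lig4, Parp1 and Xpa. Of these, Rbbp8 rose in mRNA and the others did not pass. Only Eme1 among them had a peak in Control replicate 3, so the others lacked a peak in that control list too. Control replicate 3 had a promoter peak for 39.2% of tested genes, against 67.2% and 64.6% in the other controls. A loss of these peaks with PhenDC3 was not tested. The number of members with this pattern depended on the window and on the strength of the peaks. It was 4 (8.89%, against 12.8%) in the 2 kb upstream alone and 4 (8.89%, against 10.1%) among the stronger peaks of each list. It was 8 within 1 kb (17.8%, against 9.64%) and 8 with equal numbers of peaks (17.8%, against 1679 of 13949 tested genes). The 8 within 1 kb were not the same members. Eme1, with peak summits at -2247 bases from the start, dropped out. Rnf168 came in, as its only PhenDC3 peak had its summit at -1904 bases. In Xpa the peak spanned chr4:46196264-46196634 in Control replicate 1 (fold enrichment 3.05) and chr4:46196283-46196695 in Control replicate 2 (4.15), with summits at -180 and -184 bases from the start. Both PhenDC3 lists and no control list held a peak for 3 members (6.67%, against 2.03%): Exo1, Rad51c and Rad54l. The number was 2 within 1 kb (4.44%, against 1.88%) and 2 in the 2 kb upstream alone (4.44%, against 1.67%). It was 1 among the stronger peaks (2.22%, against 2.29%) and 1 with equal numbers of peaks (2.22%, against 1.53%). The 2 PhenDC3 peaks of Rad51c were at different places, chr11:87404642-87404750 and chr11:87405821-87405913, whereas those of Rad54l overlapped, chr4:116125434-116125591 and chr4:116125448-116125554, with fold enrichments of 10.7 and 5.94. The peaks of Exo1 also lay apart. They were at chr1:175881033-175881288 and chr1:175882742-175882905 in PhenDC3 replicate 1 and at chr1:175879383-175879543 in PhenDC3 replicate 2.

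No list held a promoter peak for 16 members (35.6%, against 17.7% of tested genes), among them Atm, Chek1, Brca1, Fancd2 and, of those that fell, Rad1 and Prkdc. The other 7 members that passed had a peak in at least 1 list. A single list held a peak for 5 members (11.1%, against 10.3% of tested genes): Atrip, Rad9a, Chek2, Brca2 and Palb2. The remaining 7 members had mixed patterns (15.6%, against 35.8%). Fancl had a peak in 4 lists, Nbn in 3, Fancm in 2 and Brca2 in 1. The peak of Brca2, in Control replicate 2 only, spanned chr5:150522317-150522523 and overlaps the promoter printed above.

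**Figure D4:**
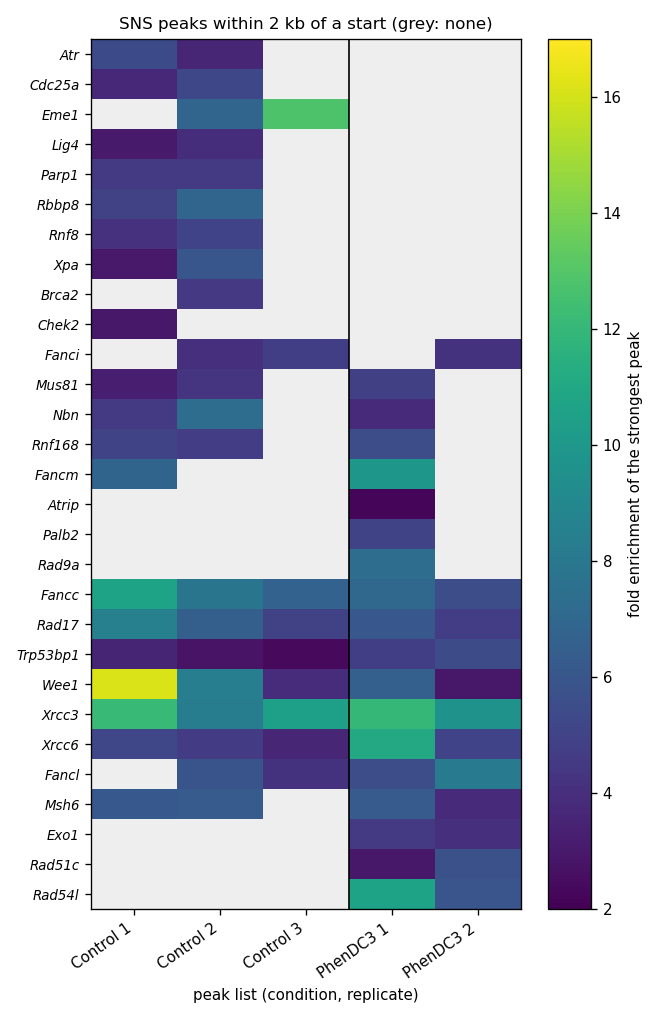
Fold enrichment over the RNase-treated library (color) of the strongest SNS-seq peak within 2 kb of a start, for the 29 members with a peak in any list (rows) and the 5 lists (columns, control left of the line), with grey for no peak. The top 10 rows have peaks in control lists only, and the bottom 3 have a peak in both PhenDC3 lists and in no control list.

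**Figure D5:**
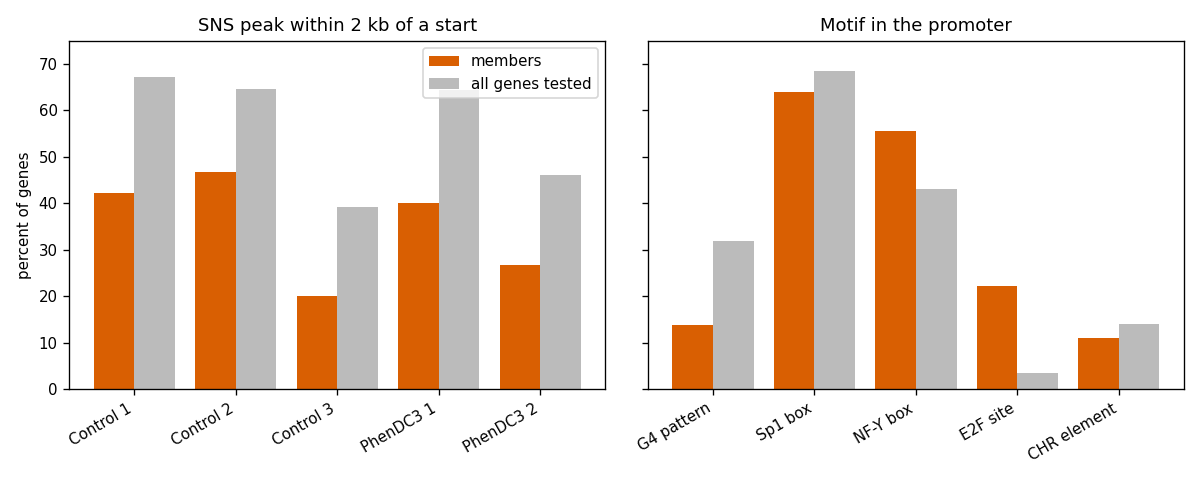
Percent of genes (y axis, from 0) with an SNS-seq peak within 2 kb of a start in each list (left) and with a motif in the 300 base promoter (right), for the members (orange; 45 on the left, 36 on the right) and all tested genes (grey). The members are below in every list and for the G4 pattern (13.9% against 31.9%) and above for the E2F site (22.2% against 3.48%).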

How the data were processed

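RNA-seq and SNS-seq files of CGR8 cells were used as deposited. For RNA-seq, the authors made libraries with a stranded mRNA kit, mapped reads with TopHat2 2.1.1 and Bowtie2 2.2.9 and counted them on genes with HTSeq 0.6.1p1, and the deposited table holds raw counts, with no strand setting or annotation given in the sources used here. For SNS-seq, the authors mapped reads to mm10 with Bowtie2 and called peaks with MACS2 2.1.0 in each replicate, not on pooled samples, and retained only peaks that a SICER broad region overlapped. Per deposited list, each peak has the fold enrichment over an RNase-treated library as a ratio, and a −log10 p that the authors' caller computed. The authors' table of DESeq2 fold changes and p-values and their table of pseudo-counts were not used, and the RNase-treated libraries were not analysed here.

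Counts were filtered with filterByExpr, scaled by relative log expression and compared with the robust quasi-likelihood test of edgeR 4.0.16, and p-values were adjusted by Benjamini-Hochberg across every tested gene. The groups came from the labels. The members, lists and tests were chosen with earlier results of these data known. All members were to be reported by role, with the values of every library for those with an adjusted p of at most 0.05 and for Atr, Chek1, Brca1, Brca2, Fancd2, Parp1 and Xpa, and of the other pathway genes up to 4 largest rises and 4 largest falls with a mean CPM of at least 1. Values of Rnf168, Fancc, Fanci, Slx4, Mre11a and Xrcc5 and the neighbours were added after they had been seen. Starts and exons came from RefSeq curated transcripts of GRCm38.p6, the build of the files (mm10), and promoters and motifs from the RefSeq promoter table. A gene had a promoter peak when a peak reached within 2 kb of any start. Peaks on the mitochondrial genome were left out. The edgeR and motif steps were tested on simulated or planted data.

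Alternatives were TMM scaling, total counts, DESeq2 1.42.0, no low-count filter, a mean CPM of at least 1, the replicate number as a block, each library left out, other promoter windows (1 kb on each side, or upstream only), stronger peaks, equal numbers of peaks (79377 per list) and longer G4 loops. Some items are not reported here.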

Additional observations from a re-analysis of the deposited data

How the results depend on the processing

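No member that passed changed direction under any of the 12 alternatives, and Fancl, Xrcc6, Fancm and Rbbp8 passed under all of them. Over the 45 members and 12 alternatives, 463 of 540 values kept their direction and side of the threshold, 18 calls were lost, 20 were gained and 39 values changed sign, all 39 in 17 members that had not passed. The causes were not tested.

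Total counts alone gave 3583 genes higher and 1688 lower, 4 members higher and 3 lower, and 8 other pathway genes higher and 7 lower. The sign changed for Atr (0.098), Atrip (0.021), Hus1 (0.15), Chek2 (0.078), Wee1 (0.11), Mdc1 (0.043), Palb2 (0.15), Rad54l (0.016) and Lig4 (0.11). Mus81 turned to -0.011 with TMM, -0.00087 in DESeq2 and -0.00086 without the filter on low counts. At a mean CPM of at least 1, Hus1 turned to 0.0026 and Palb2 to 0.00010. With the replicate number as a block, 3797 genes were higher, 5 members higher and 14 lower (53.6% of all genes passed), 9 other pathway genes higher and 29 lower. Chek1, Cdc25a, Mre11a, Rnf168, Brca1, Fancc, Fanci, Slx4, Xrcc5 and Parp1 gained a call, Hus1 was at 0.0028 and Mus81 at -0.0097. Nothing in the labels says that a replicate number marks a shared culture or day, and the deviations of same-numbered libraries correlated at 0.0904, 0.544 and 0.405, although every library correlated best with its own number.

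Leaving out each library in turn gave 1709 to 2689 genes higher and 1623 to 2727 lower. It gave 2 to 4 members higher and 2 to 9 lower, and 1 to 8 other pathway genes higher and 8 to 17 lower. Members whose sign changed ranged from -0.038 to 0.14 (Atm), -0.11 to 0.0046 (Atr), -0.0063 to 0.086 (Rad17), -0.15 to 0.12 (Hus1), -0.16 to 0.10 (Wee1), -0.27 to 0.049 (Mdc1), -0.39 to 0.17 (Trp53bp1), -0.025 to 0.16 (Bard1), -0.10 to 0.082 (Palb2), -0.034 to 0.21 (Xrcc2), -0.38 to 0.064 (Fancd2), -0.18 to 0.17 (Mus81), -0.15 to 0.076 (Lig4) and -0.041 to 0.19 (Msh6).

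The difference in members with a promoter peak ranged from -5 to 1.67 over the lists left out. Among the stronger peaks of each list, 3 members had a peak in all 5 lists and 4 in at least 2 control lists and no PhenDC3 list, which was also 4 for the upstream window. Loops of up to 12 bases gave a G4 pattern in 11 member promoters. Reads of a member in a library ran from 65 (Xpa) to 22323 (Parp1).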
